A study of Mus musculus with 8 samples.

Results

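Autophagy and lysosome genes were examined in single-cell RNA-seq of SN4741, a mouse line labelled as neural precursor cells of WT genotype that proliferates at 37 °C and is shifted to 39 °C to differentiate. Members were all genes of the files whose symbols belong to the Atg, Gabarap, Map1lc3, vacuolar ATPase (Atp6v0 and Atp6v1) and cathepsin families, together with Lamp1, Lamp2, Sqstm1, Ulk1, Ulk2, Becn1, Tfeb, Tfe3, Wipi1 and Wipi2, which gave 74 of 31053 genes, 1 of them a pseudogene, Atg4a-ps. Genes were taken in by symbol and not by measured value. The list itself was chosen with earlier results of these data known. The 4 libraries at 37 °C came from cultures in 10% serum, and the 4 at 39 °C from cultures held for 48 hours at 39 °C in 0.5% serum, so temperature and serum cannot be told apart in any comparison here. All cultures carried the heat-sensitive viral T antigen with which the line was immortalized, and the line is genetically unstable and polyploid, so copy number may differ between cells. The labels do not say whether the 4 libraries of a temperature came from separate cultures. The p-values of the temperature comparisons therefore measure the spread between libraries, which may be technical.

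Autophagy is the route by which a cell encloses part of its own cytoplasm in a double membrane, the autophagosome, and delivers it to the lysosome for breakdown. The ULK1 kinase complex starts the process, a class III PI3-kinase complex marks the site, ATG9 vesicles and ATG2 supply lipid, and a pair of ubiquitin-like conjugation reactions attach ATG8 proteins (LC3 and GABARAP) to the growing membrane, where receptors such as p62 (Sqstm1) tether cargo. Inside the lysosome, the vacuolar ATPase pumps protons, cathepsins cut proteins, and LAMP proteins line the membrane. The pathway is known to answer to nutrient and growth factor supply through mTORC1, and the transcription factors TFEB and TFE3 are known to act on many of its genes.

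After filtering, libraries held 985 to 3494 cells and 17166686 to 29633818 UMIs (molecular identifiers, each standing for 1 captured transcript). Replicate 1 at 39 °C had the fewest cells and the highest median of UMIs per cell (16665, against 6676 to 9886 in the other libraries at 39 °C). Cells scored as G1 were 17.5% to 25% of the cells at 37 °C and 78.7% to 82.2% at 39 °C, so every comparison of all cells also compares populations of different cell-cycle makeup, and the temperature results are therefore given for G1 cells beside all cells. The G1 cells were not fully matched in this respect. The proliferation marker Mki67 had a log2 fold change (39 °C over 37 °C) of -3.74 in G1 cells and -3.68 in all cells. Markers of macrophages and endothelial cells were few, and the fibroblast collagens Col1a1 and Col1a2 were abundant. In the macrophage list, Ptprc had 8 UMIs in all, C1qa and Tyrobp had 0, and 1 of 8 genes was called higher at 39 °C, Cd68, which also encodes a lysosomal membrane protein. The summed level of that list was 15.3 to 18.3 per 1000000 UMIs at 37 °C and 26.7 to 34.9 at 39 °C, with Cd68 giving 4727 of its 4791 UMIs. The endothelial list summed to 0.574 to 1.02 and 0.834 to 1.17, with Cdh5 at 0 and 1 of 5 genes called higher, while the fibroblast list summed to 1752 to 1819 at 37 °C and 824 to 857 at 39 °C, with 4 of 6 genes called lower, Col1a1, Col1a2, Col3a1 and Pdgfrb. Col1a1 had 171566 UMIs in all and Col1a2 had 93784, against 1438 for Col3a1. Pdgfra and Dcn were not called and had 197 and 22 UMIs. The neural precursor list summed to 5883 to 6214 and 5657 to 6267, mostly Vim, with 3 of 8 genes called higher and 1 lower. Nes fell by 2.11 on the log2 scale, Notch1 rose by 1.09 and Sox2 by 0.47, and Msi1, also called higher, had 12 UMIs in all. Pax6, Prom1 and Sox1 had 3, 2 and 1 UMIs. The part of these markers in the results was not tested.

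Counts were summed per library and compared with edgeR's quasi-likelihood test, with p-values adjusted by Benjamini-Hochberg over all genes tested, and 0.05 was the limit of the adjusted p for a call. Levels are given as CPM (UMIs per 1000000 UMIs, with library totals scaled by TMM factors), and summed levels of gene groups per 1000000 UMIs of a library as counted, and fold changes are on the log2 scale with their SE. Of the 74 members, 62 passed the filter of a mean of 1 UMI per library. The 12 others had 0 to 6 UMIs in all libraries together. They were the pump subunits Atp6v0a4, Atp6v1b1, Atp6v1e2 and Atp6v1g3, and the cathepsins Ctse, Ctsg, Ctsj, Ctsm, Ctsq, Ctsr, Ctss and Ctsz. Atp6v1g3, Ctsg, Ctsj, Ctsm and Ctsr were at 0, and a count of 0 allows up to 3 counts, so they were not detectable at this depth rather than shown to be absent.

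In all cells, 34 of the 62 tested members were higher at 39 °C (54.8%), where 31.5% of 15810 genes were called higher, and 4 were lower (6.45%), where 30.5% of genes were called lower. The median fold change was 0.19 over the members and 0.02 over all genes tested. In G1 cells, 18 of 62 members were higher (29%, against 24% of 14626 genes) and 10 were lower (16.1%, against 21.4% of genes), with a median of 0.10 over the members and 0.04 over all genes. The shares of members called in G1 cells were thus near those of all genes. The members were also counted more deeply than most genes, with a median of 8582 UMIs in all against 2500 over all tested genes, and the part of depth in these counts was not tested. With a size limit of 0.5 added, 12 members were higher in all cells (16.6% of genes were) and 1 was lower (16.5% of genes were). In G1 cells, 6 were higher under that limit (11.4% of genes) and 1 was lower (9.26% of genes). At an adjusted p under 0.01 with a size over 1.5, Atg9b and Ctsw were called in all cells (5.83% of genes in either direction) and Atg9b alone in G1 cells (2.36% of genes). Without 37 °C replicate 1, 7 members rather than 4 were lower in all cells.

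Summed, the members made up 6362 to 6440 per 1000000 UMIs in the 37 °C libraries and 7740 to 7969 in the 39 °C libraries. Among G1 cells alone the sums were 7576 to 7770 and 7915 to 8172. No 39 °C library fell into the range of the 37 °C libraries in either set of cells, and the gap in G1 cells was the smaller one.

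**Figure D1:**
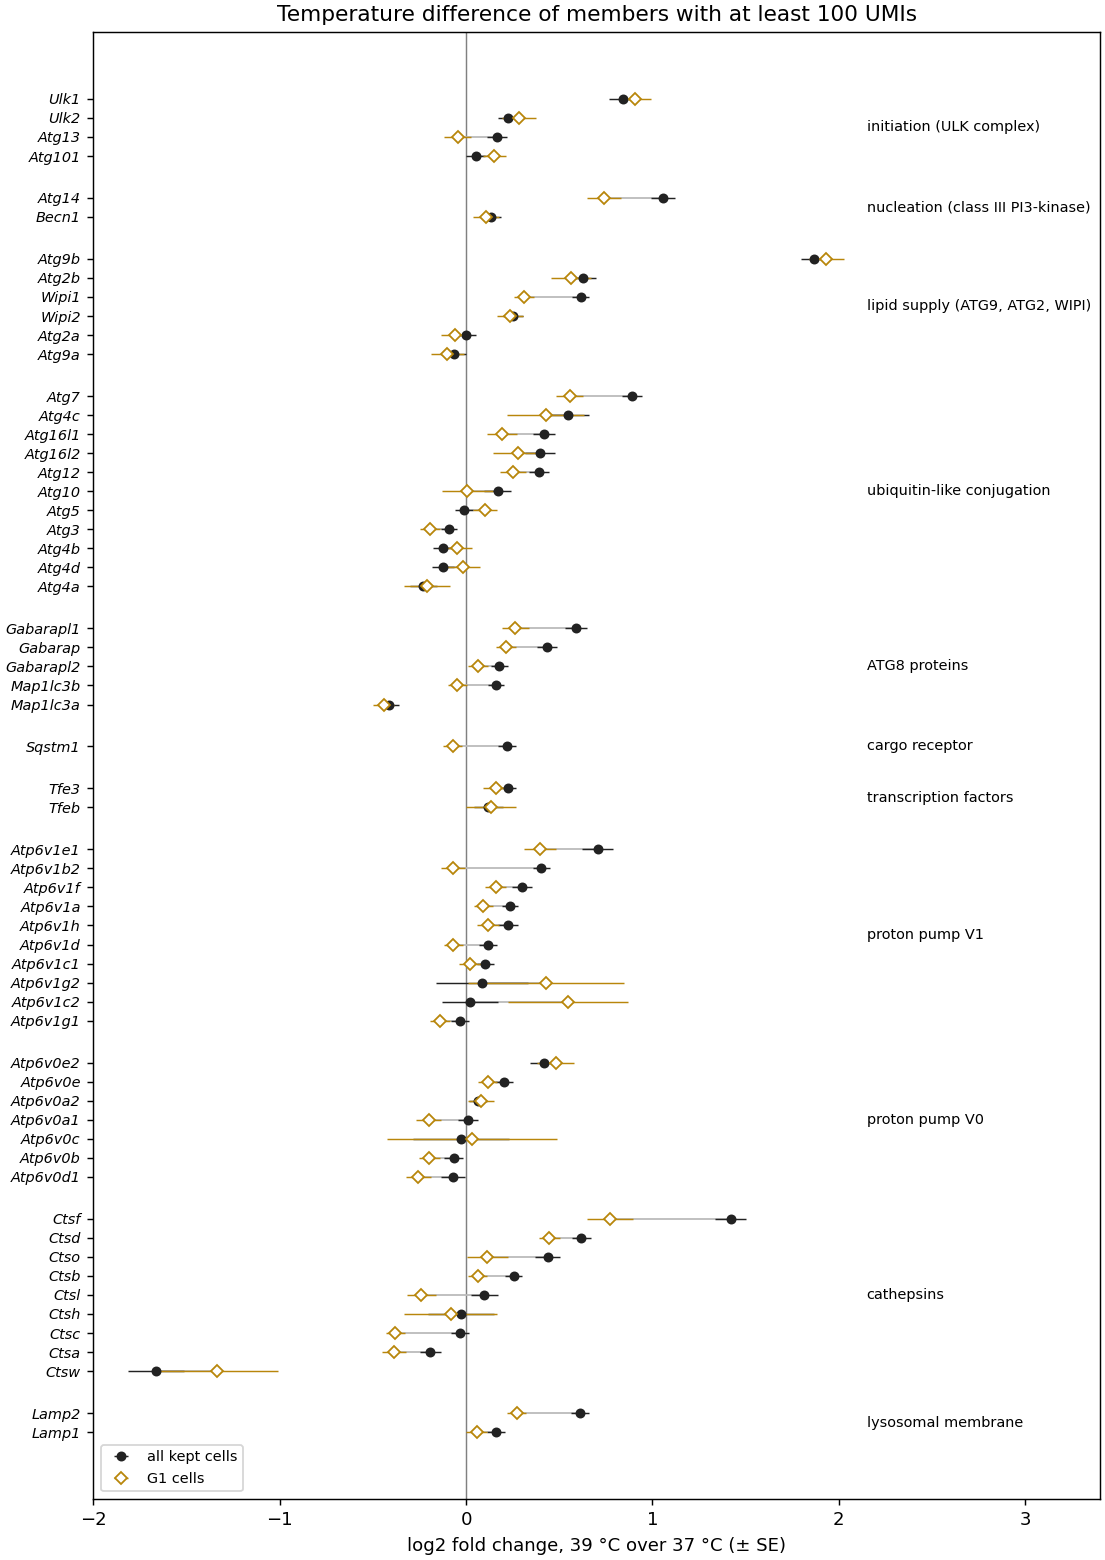
Log2 fold change of each member with at least 100 UMIs (x axis, 39 °C over 37 °C, bars are SE), grouped by role (labels at right), in all kept cells (filled circles) and in G1 cells (open diamonds). Atg9b stands furthest right at 1.87 and 1.93, Ctsw furthest left at -1.66 and -1.34, and the G1 values of most pump, cathepsin and ATG8 genes lie to the left of their all-cell values.

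Among genes that start autophagosome formation, 3 of 4 members of the ULK group were higher in all cells and 3 of 4 in G1 cells (31.5% and 24% of all genes were). Ulk1 (ENSMUSG00000029512, GRCm38 chromosome 5, 110784488 to 110810097, minus strand) encodes the kinase on which nutrient signals converge. Its level in replicates 1 to 4 was 26.7, 27.6, 24.6 and 22.8 CPM at 37 °C and 53.1, 43.6, 41.8 and 44.3 CPM at 39 °C. All 39 °C libraries lay above all 37 °C libraries, and the fold change was 0.84 ± 0.07 (adjusted p = 4e-09). In G1 cells the levels were 23, 25.5, 27.4 and 24.1 CPM against 54.1, 43.7, 43.2 and 46.7 CPM, a fold change of 0.91 ± 0.09 (adjusted p = 7.71e-09). Its share of the summed Ulk1 and Ulk2 UMIs went from 52.2% to 57.6% at 37 °C to 62.8% to 68.8% at 39 °C. Its rise in G1 cells was no smaller than in all cells, which also held for Ulk2, Atg9b and Atp6v0e2 among the 34 members that were higher in all cells.

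The nucleation genes differed from each other. Atg14, the subunit that directs the PI3-kinase complex to autophagy, had 14.5, 13.2, 11.9 and 12.1 CPM at 37 °C and 29.2, 26.6, 26.2 and 26.1 CPM at 39 °C. It rose without overlap between libraries (fold change 1.06 ± 0.07, adjusted p = 4.28e-11), and rose by 0.74 ± 0.09 in G1 cells (adjusted p = 4.98e-07). An antisense gene, Gm49004, overlaps Atg14 by up to 239 exonic bases. Becn1, the scaffold of the same complex, had 41.6, 46.6, 43.4 and 45.9 CPM against 52, 48, 47 and 48.3 CPM. The 39 °C libraries lay just above the highest 37 °C library, and the fold change was 0.14 ± 0.05 (adjusted p = 0.0247) in all cells and 0.11 ± 0.07 (adjusted p = 0.229) in G1 cells. The call in all cells was lost with DESeq2 (0.12) and without 37 °C replicate 1 (0.08), 37 °C replicate 3 (0.12), 39 °C replicate 1 (0.10) or 39 °C replicate 4 (0.13).

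The genes of the ATG9 pair differed sharply. ATG9 is a membrane-spanning protein of the core machinery that scrambles lipids in the vesicles that seed the autophagosome, with Atg9a known as the broadly expressed form. Atg9b (ENSMUSG00000038295, chromosome 5, 24384181 to 24392143, minus strand) had 20.3, 19, 22.5 and 22.7 CPM at 37 °C and 88.7, 74.6, 70.6 and 75.8 CPM at 39 °C. The lowest 39 °C library was thus far above the highest 37 °C library. The fold change was 1.87 ± 0.07 (adjusted p = 2.92e-14), a 3.65-fold higher level. In G1 cells the 37 °C libraries had 20.7, 15.1, 23.6 and 20.5 CPM and the 39 °C libraries 87.2, 73.4, 71.8 and 75.5 CPM, with a fold change of 1.93 ± 0.09 (adjusted p = 1.33e-13). Atg9a (ENSMUSG00000033124, chromosome 1, 75180860 to 75192196, minus strand) had 21, 19.5, 22 and 22.4 CPM against 17.8, 22.4, 19.3 and 21.2 CPM. These libraries overlapped, and the fold change was -0.07 ± 0.07 in all cells (adjusted p = 0.417, interval -0.20 to 0.07) and -0.10 ± 0.09 in G1 cells (adjusted p = 0.397). Atg9b made up 49.1% to 50.6% of the summed Atg9a and Atg9b UMIs at 37 °C and 76.9% to 83.3% at 39 °C.

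**Figure D2:**
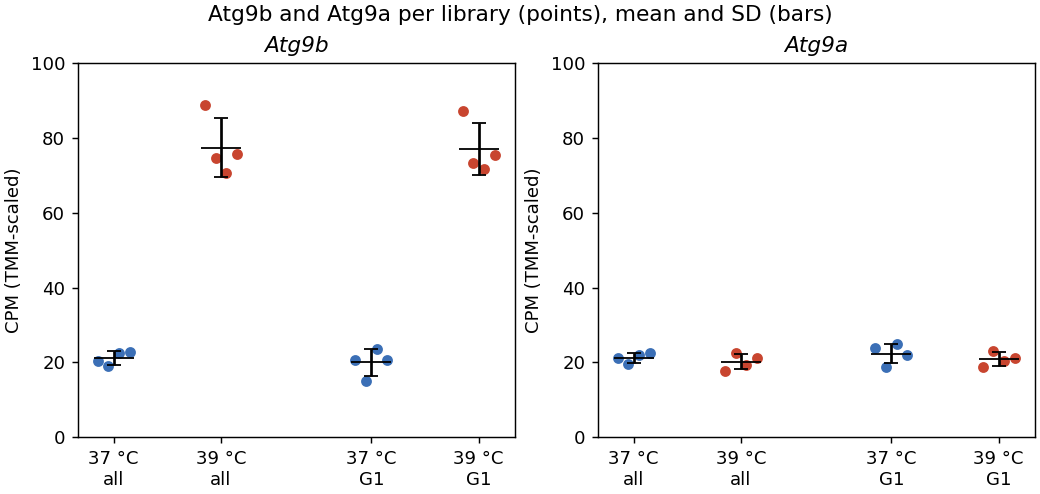
CPM of Atg9b (left) and Atg9a (right) in each library (points), with mean and SD (bars, n = 4 libraries), at 37 °C (blue) and 39 °C (red) in all kept cells and in G1 cells. Atg9b lies at 15.1 to 23.6 CPM in the 37 °C libraries and at 70.6 to 88.7 CPM in the 39 °C libraries, while the Atg9a libraries of both temperatures share the range of 17.8 to 24.8 CPM.

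The Atg9b difference was spread over many cells. With every cell thinned to 5000 UMIs, which left out 668 kept cells at 37 °C and 1668 at 39 °C, the share of G1 cells with at least 1 Atg9b UMI was 11.7%, 6.81%, 9.64% and 9.09% in the 37 °C libraries and 34.1%, 28.4%, 28.1% and 27.7% in the 39 °C libraries. The 37 °C mean was 9.31% ± 2.01 (SD, n = 4), and the 39 °C mean was 29.6% ± 3.03 (SD, n = 4). They differed by 20.3 percentage points, and an exact permutation test over the 70 ways to split the libraries, two-sided, gave p = 0.0286, the smallest it can give here. Atg9b was chosen with its rise in these data known, and the shares come from the same counts as its fold change. The test therefore adds no separate support for the rise. Among S and G2M cells the shares were 9.56% ± 0.693 (SD, n = 4) and 30.6% ± 3.59 (SD, n = 4). Unthinned, the G1 shares were 17% and 46.1%. Atg9a was seen in 10.9% and 9.86% of thinned G1 cells (exact permutation p = 0.429). At 39 °C the G1 cells with any Atg9b UMI held 1.37 to 1.40 UMIs each after thinning, and no more than 6 in 1 cell. The data hold no cell type that should lack Atg9b, so the share that free RNA alone would give could not be measured.

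Atg9b ends within the end of Nos3, a gene of the opposite strand (chromosome 5, 24364810 to 24384474, plus strand), and their exons overlap by 294 bases at the 3' ends of both genes, where this kit reads. The sources used here do not state whether strand was used in counting, so reads of that stretch cannot be assigned with certainty. Nos3 itself was low and overlapped between temperatures, with 46, 34, 44 and 32 UMIs at 37 °C and 18, 31, 43 and 30 at 39 °C. Atg9a in turn overlaps a processed transcript, Gm29253, which is not a gene of the files and holds all of the last 500 bases of Atg9a.

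Of the other lipid supply genes, Wipi1 and Atg2b rose in both sets of cells. Wipi1 binds the lipid made by the PI3-kinase, and its level was 77.1, 71.4, 73.1 and 73.4 CPM at 37 °C and 119, 109, 112 and 112 CPM at 39 °C. The libraries did not overlap, with fold changes of 0.62 ± 0.05 in all cells (adjusted p = 5.98e-10) and 0.31 ± 0.05 in G1 cells (adjusted p = 4.84e-05). Atg2b, a lipid transfer protein, went from 8.14 to 9.12 CPM at 37 °C to 12.6 to 13.9 CPM at 39 °C, and rose by 0.63 ± 0.07 in all cells (adjusted p = 9.02e-08) and by 0.56 ± 0.11 in G1 cells (adjusted p = 0.000141). Wipi2, which recruits the conjugation machinery, rose by 0.25 ± 0.05 (adjusted p = 0.00029) and by 0.24 ± 0.07 in G1 cells (adjusted p = 0.0069).

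In the conjugation system, 5 of 12 tested members were higher and 1 was lower in all cells (31.5% and 30.5% of all genes were). In G1 cells 2 were higher and 1 was lower (24% and 21.4% of all genes were), so neither G1 share stood above that of all genes. Atg7, the E1-like enzyme that activates both ubiquitin-like systems, had 18.5, 16.6, 18.9 and 17.1 CPM at 37 °C and 33.3, 33.2, 32.7 and 32.6 CPM at 39 °C. Its libraries at 39 °C were nearly equal and all above those at 37 °C, with fold changes of 0.89 ± 0.05 in all cells (adjusted p = 2.26e-11) and 0.56 ± 0.07 in G1 cells (adjusted p = 1.03e-06). Atg4c, one of the proteases that process ATG8 proteins, was counted in 692 UMIs only and rose by 0.55 ± 0.11 in all cells (adjusted p = 0.000249), against 0.43 ± 0.21 in G1 cells (adjusted p = 0.099). Its paralog Atg4a fell by 0.23 ± 0.07 on the log2 scale in all cells (adjusted p = 0.0103), with -0.21 ± 0.12 in G1 cells (adjusted p = 0.182), and the call in all cells was lost at equal library totals (adjusted p = 0.0645). Atg4a shares 43.5% of the 50-base windows in its last 500 bases with the pseudogene Atg4a-ps, so reads could be split between them, and Atg4a-ps had 11 UMIs in all.

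The ATG8 proteins moved in both directions. Gabarap had the highest count of the members, 236209 UMIs in all, and its level was 975, 956, 942 and 978 CPM at 37 °C and 1225, 1343, 1300.2 and 1334 CPM at 39 °C. It rose without overlap by 0.43 ± 0.05 (adjusted p = 5.43e-07), and by 0.22 ± 0.05 in G1 cells (adjusted p = 0.00229). Gabarapl1, a close relative, rose by 0.59 ± 0.06 (adjusted p = 4.14e-08), and by 0.26 ± 0.07 in G1 cells (adjusted p = 0.00471). The latter call was lost when all libraries were thinned to equal totals (0.10, adjusted p = 0.362). Map1lc3b, the LC3 form most used as an autophagosome marker, rose by 0.16 ± 0.04 in all cells (adjusted p = 0.00423), and its G1 value was -0.05 ± 0.05 (adjusted p = 0.475). Map1lc3a went the other way, from 192, 201, 194 and 216 CPM at 37 °C to 137, 157, 154 and 154 CPM at 39 °C. Every 39 °C library was below every 37 °C library, with a fall by 0.41 ± 0.05 in all cells (adjusted p = 1.38e-06) and by 0.44 ± 0.06 in G1 cells (adjusted p = 7.26e-07). Its share of the LC3 UMIs (Map1lc3a and Map1lc3b) was 38.2% to 41.2% at 37 °C and 28.6% to 31.6% at 39 °C.

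Sqstm1 encodes p62, a cargo receptor that is itself degraded by autophagy. Its level in all cells was 314, 308, 293 and 287 CPM at 37 °C and 350, 355, 359 and 335 CPM at 39 °C, a rise by 0.22 ± 0.05 with no overlap (adjusted p = 0.000546). In G1 cells the libraries overlapped, at 386, 416, 384 and 400 CPM against 377, 382, 387 and 364 CPM, and the fold change was -0.07 ± 0.05 (adjusted p = 0.279). Sqstm1 overlaps Mrnip on the other strand by up to 580 exonic bases. Exons of Becn1, Ctsb, Ctsl, Ctsa, Lamp1 and Atg2b likewise overlap genes of the other strand by over 100 bases, so part of their counts cannot be told apart from those of Cntd1, Fdft1, Gm47123, Neurl2 and Pltp, Grtp1 and Gskip if strand was not used.

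The transcription factors themselves moved little. Tfeb, which was counted in 1783 UMIs, had 7.82, 8.26, 8.55 and 8.04 CPM against 9.70, 9.35, 8.32 and 8.33 CPM, with overlapping libraries and a fold change of 0.12 ± 0.08 (adjusted p = 0.18) in all cells and 0.13 ± 0.13 (adjusted p = 0.456) in G1 cells. Tfe3 had 47.2, 49.8, 48.2 and 44.6 CPM against 56.9, 56.2, 54.8 and 53.7 CPM, a rise by 0.22 ± 0.05 without overlap (adjusted p = 0.000349). Its G1 value was 0.16 ± 0.07 (adjusted p = 0.0531), just outside the threshold.

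TFEB and TFE3 are known to bind the E-box CACGTG, most often within the longer palindrome TCACGTGA, the core of the CLEAR element of lysosomal genes. Promoter windows of 300 bases, from 250 before to 50 after each annotated start (RefSeq, GRCm38.p6), were found for 59 of the 74 members, in 68 windows. The E-box occurred in 13 of these windows (19.1%) and in 7.15% of all 32851 windows, and the longer core, which contains the E-box, in 6 windows (8.82%) and in 0.974% of all windows. Both motifs are the same on either strand. The forkhead core GTAAACA, searched on both strands, was in 1 member window (1.47%, against 3.65% of all windows). The members with the longer core were Atg3, Atp6v0d1, Atp6v0e, Atp6v1a, Ctsa and Ctsd. In all cells 3 of these 6 were higher at 39 °C and 1 was lower, and in G1 cells 1 was higher and 3 were lower, so they did not share a direction with temperature. Of all tested members, 54.8% were higher and 6.45% lower in all cells, and 29% and 16.1% in G1 cells. The shares of all genes were 31.5% and 30.5% in all cells, and 24% and 21.4% in G1 cells. Between phases, all 6 were higher in G1 cells than in S and G2M cells at 37 °C, and at 39 °C 5 were higher and 1 was lower. Of the 13 members with an E-box, 7 were higher at 39 °C and 1 was lower in all cells, and 4 were higher and 5 were lower in G1 cells. Between phases, 12 of these 13 were higher in G1 cells at 37 °C, and at 39 °C 11 were higher and 1 was lower. Of all tested members, 56.7% were higher in G1 cells at 37 °C and 55% at 39 °C (19.8% and 22% of all genes were). Whether members with a motif differed from the other members was not tested.

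The 120 bases before the start of 5 members are shown on the strand of the gene, 5' to 3', with E-boxes in capitals. They are shown because they hold different numbers of boxes beside different responses: 4 boxes in Lamp1, 1 box within this stretch in each of Ctsd, Ctsf and Ctsa, and no box in Atg9b, the member with the largest rise. Ctsa has 2 annotated starts, and the stretch before the other one (chr2:164832752-164832871) holds no E-box.
Lamp1 (chr8:13159041-13159160, plus strand): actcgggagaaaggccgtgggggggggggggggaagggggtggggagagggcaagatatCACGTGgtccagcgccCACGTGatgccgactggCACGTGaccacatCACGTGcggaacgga
Ctsd (chr7:142387828-142387947, minus strand): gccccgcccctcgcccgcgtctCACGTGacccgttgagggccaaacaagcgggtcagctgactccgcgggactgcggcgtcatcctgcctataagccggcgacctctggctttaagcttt
Ctsf (chr19:4855045-4855164, plus strand): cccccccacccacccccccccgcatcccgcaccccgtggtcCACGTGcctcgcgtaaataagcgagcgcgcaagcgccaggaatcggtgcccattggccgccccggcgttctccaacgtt
Ctsa (chr2:164833653-164833772, plus strand): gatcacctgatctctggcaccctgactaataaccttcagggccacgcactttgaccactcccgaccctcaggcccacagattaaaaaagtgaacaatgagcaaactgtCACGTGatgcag
Atg9b (chr5:24392144-24392263, minus strand): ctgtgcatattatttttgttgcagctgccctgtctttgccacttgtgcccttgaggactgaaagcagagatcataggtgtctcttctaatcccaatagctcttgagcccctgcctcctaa

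The boxes shown for Ctsd and Ctsa lie within the longer core. Ctsd has a further E-box upstream of this stretch, and Ctsa a second core just after its start. A match of letters is a description and does not show that a factor binds there.

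The vacuolar ATPase is built from a V1 sector that splits ATP and a V0 sector that carries protons through the membrane. Of its 22 members 18 were tested. In all cells 8 were higher at 39 °C and the other 10 were not called (31.5% of all genes were higher and 30.5% lower). In G1 cells 3 were higher and 4 were lower, shares near or below the 24% and 21.4% of all genes. The summed pump level was 1941, 1960, 1930.3 and 1913 per 1000000 UMIs at 37 °C and 2201, 2261, 2201 and 2201 at 39 °C in all cells. In G1 cells it was 2256, 2296, 2241 and 2310 against 2255, 2308, 2251 and 2246 per 1000000 UMIs. The libraries thus separated in all cells and covered the same range in G1 cells. The sectors differed within that sum: in G1 cells the V1 sum was 1394 to 1438 at 37 °C and 1446 to 1488 at 39 °C, and the V0 sum was 846 to 883 and 778 to 820.5 per 1000000 UMIs.

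Atp6v1e1, a stalk subunit of V1, had the largest rise among called pump genes in all cells, from 164, 194, 167 and 156 CPM to 334, 276, 256 and 246 CPM. The libraries did not overlap, though replicate 1 at 39 °C stood well above the other 3, and the fold change was 0.71 ± 0.08 (adjusted p = 2.78e-07). In G1 cells it was 0.40 ± 0.08 (adjusted p = 0.000413). Atp6v1b2, the B subunit of the catalytic ring, was called in all cells and not in G1 cells. It rose by 0.40 ± 0.05 in all cells (adjusted p = 2.46e-07), from 33.8 to 35.8 CPM to 44.5 to 48 CPM. Its G1 value was -0.07 ± 0.07 (adjusted p = 0.412), where the libraries overlapped at 48.9 to 61.8 and 49 to 52.1 CPM. Atp6v0e2, a small V0 subunit, rose in both, by 0.42 ± 0.07 (adjusted p = 5.81e-05) and by 0.48 ± 0.10 (adjusted p = 0.00031). Atp6v0c, the subunit of the proton-carrying ring, had 143 UMIs in all and under 1 CPM in each library. The highest count of a V0 gene was 67377 UMIs. The cause of the low count of Atp6v0c was not tested, so its level in the cells is not known from it.

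**Figure D3:**
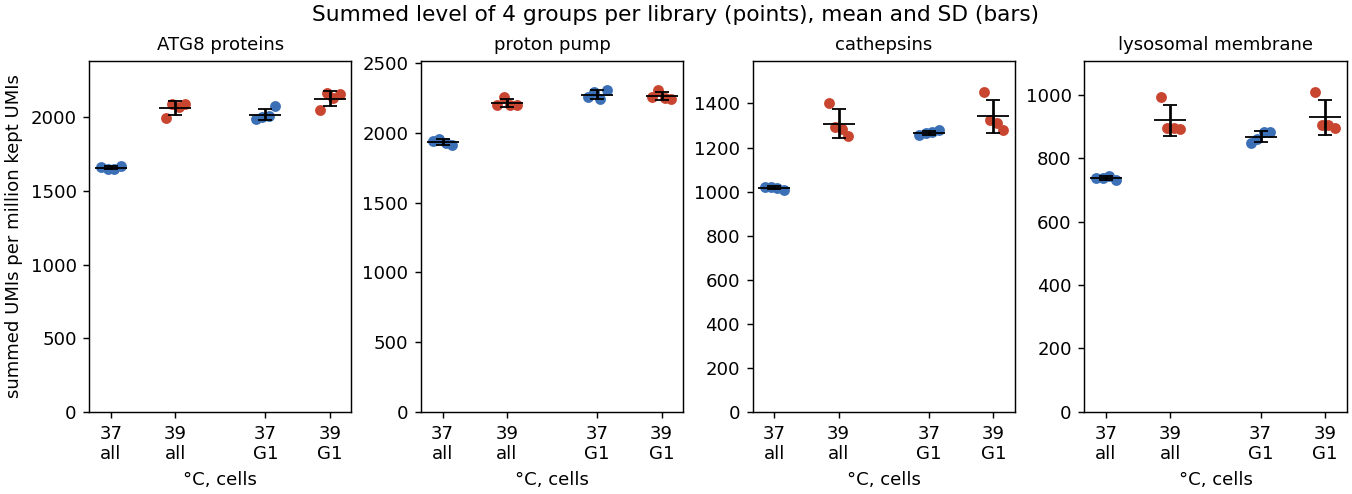
Summed level per 1000000 UMIs (y axes, from 0) of the ATG8 proteins, the proton pump, the cathepsins and the lysosomal membrane genes in each library (points; mean and SD as bars, n = 4 libraries), at 37 °C (blue) and 39 °C (red) in all kept cells and in G1 cells. All 4 sums are higher at 39 °C in all cells, and the pump sums of G1 cells overlap between 2241 and 2310.

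The cathepsins moved apart from each other. Of 10 tested, 4 were higher and 2 lower in all cells (31.5% and 30.5% of all genes were), and 2 were higher and 4 lower in G1 cells (24% and 21.4% of all genes were). Ctsd, the main aspartic protease of the lysosome (ENSMUSG00000007891, chromosome 7, 142375911 to 142388038, minus strand), had 432, 404, 419 and 437 CPM at 37 °C and 676, 654, 633 and 635 CPM at 39 °C. It rose without overlap by 0.62 ± 0.05 (adjusted p = 1.79e-09), and by 0.45 ± 0.05 in G1 cells (adjusted p = 4.5e-07). Ctsd made up 38.9% to 42.6% of cathepsin UMIs at 37 °C and 49.4% to 51.3% at 39 °C. A predicted gene of the same strand, Gm49369, overlaps its exons by up to 227 bases. Ctsf, a cysteine protease, went from 5.72, 5.31, 5.05 and 4.67 CPM to 15.7, 14.3, 13 and 13 CPM, a fold change of 1.42 ± 0.08 (adjusted p = 2.29e-11). In G1 cells it went from 7.15, 11, 7.94 and 10.5 CPM to 17.1, 15.9, 14.3 and 14.5 CPM, a fold change of 0.77 ± 0.12 (adjusted p = 1.67e-05).

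The other cathepsins rose less or fell. Ctsb, an abundant endo- and exopeptidase, rose by 0.26 ± 0.05 in all cells (adjusted p = 6.07e-05), and its G1 value was 0.06 ± 0.05 (adjusted p = 0.346). Ctsl, an endopeptidase, had 149, 169, 141 and 142 CPM against 187, 152, 162 and 143 CPM in all cells, with overlap and a fold change of 0.10 ± 0.07 (adjusted p = 0.249). In G1 cells it fell by 0.24 ± 0.08 (adjusted p = 0.0143), with libraries that still overlapped, and the call was lost without 37 °C replicate 2 (-0.17), without 39 °C replicate 4 (-0.18) and with phases scored in each library by itself (-0.15). Ctsc, which activates serine proteases of immune cells, had -0.03 ± 0.05 in all cells (adjusted p = 0.571) and fell by 0.38 ± 0.05 in G1 cells (adjusted p = 2.2e-06), where 179 to 203 CPM at 37 °C stood against 141 to 150 CPM at 39 °C. Ctsa, a carboxypeptidase that protects lysosomal glycosidases, fell in both, from 113, 113, 121 and 114 CPM to 109, 105, 101 and 89 CPM in all cells (fold change -0.19 ± 0.06, adjusted p = 0.00588). In G1 cells it fell from 130.3, 126, 133 and 131 CPM to 112, 103, 97.8 and 86.1 CPM (-0.39 ± 0.06, adjusted p = 2.97e-05). The temperatures did not overlap in either set of cells. Ctsw, known from cytotoxic lymphocytes, was low, with 513 UMIs in all, and fell from 3.19, 3.95, 3.75 and 3.51 CPM to 1.25, 0.908, 1.38 and 1.00 CPM (fold change -1.66 ± 0.15, adjusted p = 1e-08). In G1 cells it fell by 1.34 ± 0.33 (adjusted p = 0.00173), on 0.864 to 2.78 against 0.604 to 0.976 CPM, which overlapped, and at equal library totals that call was lost (adjusted p = 0.0706). Ctsw abuts Fibp of the other strand, with a 9-base overlap of exons, and Fibp had 97.2 to 107 CPM at 37 °C and 103 to 114 CPM at 39 °C.

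The membrane proteins of the lysosome rose to different extents. Lamp2, which also serves as the receptor of chaperone-mediated autophagy, had 188, 184, 180 and 172 CPM at 37 °C and 289, 277, 278 and 262 CPM at 39 °C. It rose by 0.61 ± 0.05 in all cells (adjusted p = 1.55e-09) and by 0.27 ± 0.05 in G1 cells (adjusted p = 0.000141), without overlap in either. With phases scored per library the G1 values of Lamp2, Gabarap and Ctsc were 0.42, 0.34 and -0.22, all still called. Lamp1 had 561, 568, 561 and 572 CPM against 679, 617, 612 and 621 CPM, a rise by 0.16 ± 0.05 (adjusted p = 0.00901). In G1 cells the value was 0.06 ± 0.05 (adjusted p = 0.433), with overlapping libraries.

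Cell-cycle phase was compared within libraries, between cells assigned to G1 and those assigned to S or G2M, over 16 sums with the library as a block. This asks which members differ between phases when the culture is the same. The block removes the spread between libraries. The p-values of these tests and of the interaction therefore measure what varies beyond it among sums of the same libraries. At 37 °C, 34 of 60 tested members were higher in G1 cells (56.7%), where 19.8% of 14745 genes were, and 3 were lower (5%), where 23.5% of genes were. At 39 °C, 33 were higher (55%), where 22% of genes were, and 5 were lower (8.33%), where 19.2% of genes were. Without 39 °C replicate 2 or replicate 4, 3 rather than 5 were lower at 39 °C. At both temperatures 27 of 60 members were higher (45%), where 13.2% of genes were. The median fold change was 0.15 over the members and -0.01 over all genes at 37 °C, and 0.17 and 0.03 at 39 °C. Depth per cell moved with phase in opposite directions. At 37 °C, G1 cells had fewer UMIs than S and G2M cells in all 4 libraries (medians of 8773 to 12645 against 10053.5 to 16034.5), and at 39 °C they had more in all 4 (6840 to 16959.5 against 6225 to 16044). The mitochondrial share was higher in G1 cells at 37 °C (7.78% to 8.19% against 7.48% to 7.81%) and lower at 39 °C (7.96% to 8.78% against 8.43% to 9.20%). Their part in the phase differences was not tested.

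By group, 12 of 17 tested pump genes, 7 of 10 cathepsins and all 5 ATG8 genes were higher in G1 cells at 37 °C (19.8% of all genes were), and at 39 °C 11, 5 and 4 were (22% of all genes were). Ctsf had 7.14, 11.1, 7.94 and 10.5 CPM in G1 cells and 5.45, 4.13, 4.54 and 3.55 CPM in S and G2M cells of the same 37 °C libraries. The fold change was 1.01 ± 0.14 at 37 °C (adjusted p = 1.76e-12) and 0.87 ± 0.12 at 39 °C (adjusted p = 7.32e-12). It depended on how phases were assigned: scored in each library by itself it was 0.74 and 0.34. Atp6v1b2 had 50.6, 62, 51.2 and 48.9 CPM in G1 cells and 32.4, 30.1, 32.9 and 31 CPM in the others at 37 °C (0.74 ± 0.06, adjusted p = 5.64e-36), and 48.4, 52.1, 51.4 and 49 against 35.5, 32.3, 30.7 and 29.3 CPM at 39 °C (0.67 ± 0.07, adjusted p = 3.04e-23). Its level was therefore higher in G1 cells in all 8 libraries, and within a phase the libraries of the temperatures overlapped.

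Sqstm1 followed the same pattern, with 385, 418, 385 and 400 CPM in G1 cells against 300.5, 289, 279 and 266 CPM in the others at 37 °C (0.48 ± 0.03, adjusted p = 6.3e-79), and 373, 382, 386 and 364 against 249, 251, 260 and 243 CPM at 39 °C (0.59 ± 0.03, adjusted p = 2.56e-95). Gabarap was higher in G1 cells by 0.35 ± 0.02 (adjusted p = 7e-80) and 0.39 ± 0.02 (adjusted p = 3.07e-91). Lamp2 was higher by 0.50 ± 0.03 (adjusted p = 4.99e-62) and 0.33 ± 0.03 (adjusted p = 1.43e-27), and Ctsd by 0.28 ± 0.02 (adjusted p = 1.83e-33) and 0.32 ± 0.02 (adjusted p = 2.21e-43). Ctsc, Atp6v1e1, Gabarapl1 and Ctsl were also higher in G1 cells at both temperatures, by 0.53, 0.50, 0.48 and 0.48 at 37 °C and by 0.48, 0.54, 0.32 and 0.21 at 39 °C. With phases scored in each library by itself, the 39 °C values were smaller though still called, at 0.25 for Gabarap, 0.19 for Lamp2, 0.14 for Ctsd and 0.33 for Atp6v1e1. In both scorings these lysosomal and ATG8 genes stood higher in G1 cells.

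Atg9b did not share this pattern. At 37 °C its levels were 20.6, 15.2, 23.6 and 20.5 CPM in G1 cells and 20.7, 20.2, 22.9 and 23.3 CPM in S and G2M cells (-0.11 ± 0.08, adjusted p = 0.275). At 39 °C they were 86.3, 73.5, 71.7 and 75.4 CPM in G1 cells and 102, 84.9, 69.5 and 81.6 CPM in the others, slightly lower in G1 cells (-0.13 ± 0.05, adjusted p = 0.0226). That call was lost without 39 °C replicate 1 (-0.09), 39 °C replicate 2 (-0.11) or 39 °C replicate 4 (-0.13), whereas with phases scored per library the values were -0.33 at 37 °C and -0.42 at 39 °C, both called. Ctsw was lower in G1 cells by 1.02 ± 0.23 on the log2 scale at 37 °C (fold change -1.02, adjusted p = 3.75e-05) and by 1.84 ± 0.30 at 39 °C (fold change -1.84, adjusted p = 5.13e-09). Atp6v1c2, a tissue-restricted V1 subunit counted in 500 UMIs, had -1.01 ± 0.28 (adjusted p = 0.00102) and -1.29 ± 0.22 (adjusted p = 2.22e-08). At 37 °C Atg101, a ULK complex subunit, was also called lower (-0.10 ± 0.04, adjusted p = 0.0413), which did not hold when 37 °C replicate 1 (-0.11), 37 °C replicate 3 (-0.10) or 37 °C replicate 4 (-0.09) was left out, nor with RLE factors (-0.08) or filterByExpr (-0.05). At 39 °C Atg10, the E2-like enzyme for ATG12, was called lower (-0.36 ± 0.13, adjusted p = 0.0148), lost without 39 °C replicate 2 (-0.33) or 39 °C replicate 4 (-0.33) and with phases scored per library (-0.08). The value of Atp6v1c2 at 39 °C was -0.71 with that scoring.

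**Figure D4:**
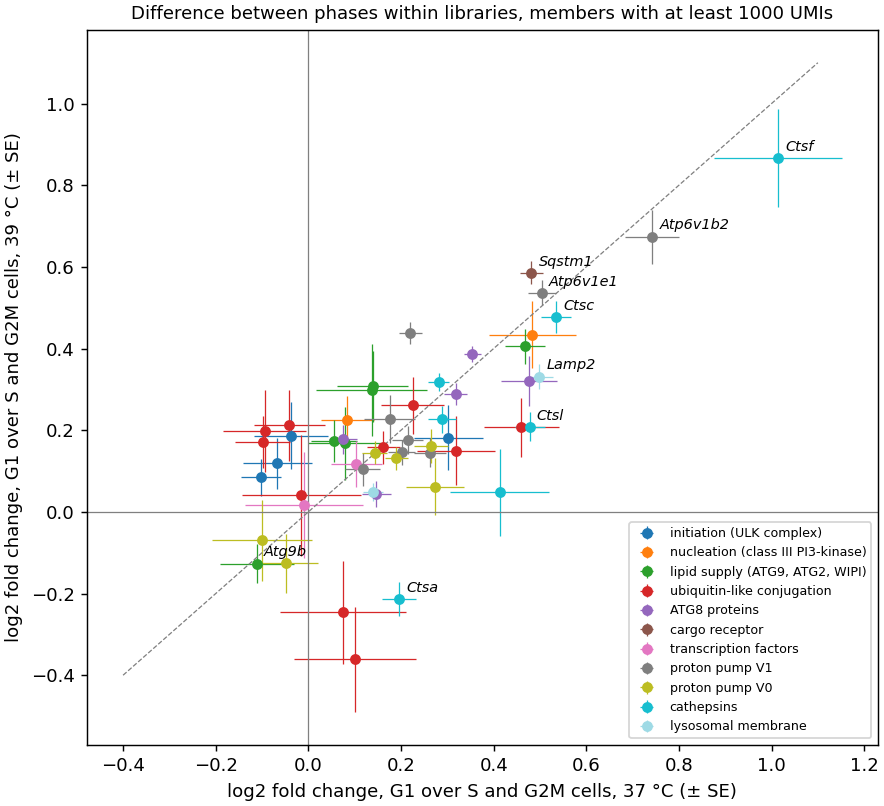
Log2 fold change between G1 cells and S and G2M cells of the same libraries at 37 °C (x axis) and at 39 °C (y axis), with SE as bars, for members with at least 1000 UMIs, coloured by role; the dashed line marks equal values. Ctsf and Atp6v1b2 lie furthest to the upper right, Atg9b lies just below 0 on both axes (-0.11 and -0.13), and Ctsa lies above 0 at 37 °C (0.20) and below 0 at 39 °C (-0.21).

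Whether the temperature difference itself depended on phase was tested as an interaction over the same 16 sums. The interaction is signed: it is the fold change of 39 °C over 37 °C in G1 cells minus that in S and G2M cells. Its sign does not give the size of a difference, since a gene that falls more in G1 cells has a negative value. The interaction was called positive for 4 of 60 members (6.67%, where 10.6% of genes were), Atg101, Atg5, Atp6v1g1 and Sqstm1. It was called negative for 4 (6.67%, where 5.26% of genes were), Ctsa, Ctsl, Lamp1 and Lamp2. These shares were near or below those of all genes, and the split of 4 and 4 moved to 1 and 8 with RLE scaling factors and to 1 and 16 with the filterByExpr limit on low counts. Without 37 °C replicate 4, 39 °C replicate 2 or 39 °C replicate 3, 2 rather than 4 members were called positive. Ctsa had the clearest dependence. Within 37 °C it was higher in G1 cells by 0.20 ± 0.04 (adjusted p = 6.09e-07), at 130.2, 126, 133 and 131 CPM against 110.5, 112, 121 and 111 CPM. Within 39 °C it was lower in G1 cells (-0.21 ± 0.04, adjusted p = 9.94e-07), at 110.2, 103, 97.7 and 86 CPM against 108, 121, 119 and 106 CPM, so that the interaction was -0.41 ± 0.05 (adjusted p = 6.93e-12). Ctsl had -0.27 ± 0.05 (adjusted p = 6.53e-07), Lamp2 had -0.17 ± 0.04 (adjusted p = 0.000954) and Atp6v1g1, a V1 stalk subunit, had 0.22 ± 0.04 (adjusted p = 1.82e-07). These 4 kept their calls under all alternatives run. The other calls were less stable, and each was lost on leaving out any 1 of several libraries. That of Lamp1 (-0.09) was lost on leaving out any 1 of the libraries other than 39 °C replicate 1 (-0.09 to -0.07), and that of Sqstm1 (0.10) without 37 °C replicate 1 or 3 or 39 °C replicate 2, 3 or 4 (0.08 to 0.11). That of Atg5 (0.27) was lost without 37 °C replicate 2 or 4 or 39 °C replicate 3 (0.23 to 0.25), and that of Atg101 (0.19) without 37 °C replicate 4 or 39 °C replicate 1 or 2 (0.17). Atg9b had -0.02 ± 0.09 (adjusted p = 0.95, interval -0.20 to 0.17), so a dependence on phase was not detected for it.

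The other genes of the pathway were counted from a list of 118, of which 117 were in the files. In all cells 65 of 115 tested were higher at 39 °C and 16 were lower (31.5% and 30.5% of all genes were). In G1 cells 34 of 114 were higher and 23 were lower, shares near the 24% and 21.4% of all genes. Within libraries, 65 of 115 were higher in G1 cells and 6 were lower at 37 °C (19.8% and 23.5% of all genes were), and 56 were higher and 8 were lower at 39 °C (22% and 19.2% of all genes were). By group, 21 of 36 other lysosomal enzymes were higher and 6 lower in all cells, and 10 of 35 were higher and 9 lower in G1 cells. The largest rise was that of Man2b1, the lysosomal alpha-mannosidase, at 1.47 ± 0.05 (adjusted p = 1.14e-14), from 70.5 ± 2.7 (SD, n = 4) to 195 ± 12 CPM (SD, n = 4). Its G1 value was 1.17 ± 0.06 (adjusted p = 1.48e-13). Of 22 other lysosomal membrane and transport genes, 14 were higher in all cells and the other 8 were not called, and in G1 cells 8 were higher and 2 were lower. Laptm4b had 0.95 ± 0.06 in all cells (adjusted p = 2.67e-11) and 0.71 ± 0.08 in G1 cells (adjusted p = 7.82e-08). Of 26 genes of mTORC1 and nutrient control, 15 were higher and 3 lower in all cells, and 11 were higher and 4 lower in G1 cells. The AMPK subunit Prkaa2 had 1.00 ± 0.08 in all cells (adjusted p = 2.83e-09) and 0.94 ± 0.13 in G1 cells (adjusted p = 1.69e-06). Lamtor5, a part of the lysosomal platform for mTORC1, had -0.48 ± 0.06 (adjusted p = 1.13e-06) and -0.42 ± 0.06 (adjusted p = 6.16e-06). In the other autophagy machinery 10 of 19 were higher and 3 lower in all cells, and 2 were higher and 2 lower in G1 cells, with the tether Tecpr1 at 0.99 ± 0.05 in all cells (adjusted p = 2.94e-12) and 0.63 ± 0.07 in G1 cells (adjusted p = 8.96e-08). Of 11 other cargo receptors tested, 4 were higher and 4 lower in all cells, and 2 were higher and 6 lower in G1 cells. Of the other MiT/TFE factors, Mitf rose by 0.78 ± 0.09 in all cells (adjusted p = 5.63e-07) from 4.40 ± 0.41 (SD, n = 4) to 7.64 ± 0.68 CPM (SD, n = 4), and by 0.40 ± 0.15 in G1 cells (adjusted p = 0.0326).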

How the data were processed

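Per the labels, libraries were made by Chromium 3' V3 chemistry and reads went through Cell Ranger 3.0.1 on mm10 (GRCm38). Each library's deposited matrix holds raw UMI counts, not normalized. The study's cell limits were applied here: cells with over 15% mitochondrial UMIs, under 200 genes or over 6000 genes were left out (18351 of 19125 kept). The upper limit is the only step against doublets. At most 5 barcodes were shared by a pair of libraries, and all pairs within a temperature differed by more than counting noise. Phases were scored in Seurat 5.3.0 with its original phase lists, in letter-case matched mouse symbols. Counts were summed per library, for all cells, G1 cells, or S and G2M cells, and tested in edgeR 4.0.16 (R 4.3.3) with TMM factors, genes at a mean of at least 1 UMI per sum, glmQLFit and glmQLFTest. The SE was taken as the fold change over the root of the F statistic, and intervals are 1.96 SE to either side. Shares of cells were compared by exact permutation in Python 3.11.15. Gene positions are from GENCODE M21. DESeq2 1.42.0 and other scaling factors, filters, phase assignments and left-out libraries were run as alternatives. The procedure was tested on simulated data.

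The members, gene lists and named genes were chosen with earlier results of these data known. Named were 13 fixed genes of the core pathway and, in each role group, up to 3 largest rises and falls at an adjusted p under 0.05 and 0.5 in size, with Nos3 as the neighbour of Atg9b. Atg10, Atg101, Atg4a, Atg5, Atp6v0e2, Atp6v1b2, Atp6v1c2, Atp6v1g1, Ctsa, Ctsc, Gabarap, Map1lc3a, Wipi2, Atp6v0c, Mitf, Man2b1, Laptm4b, Prkaa2, Lamtor5 and Tecpr1 were named after their values were seen.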

Additional observations from a re-analysis of the deposited data

Results flagged for a closer look

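Of 120 groups of 4 libraries tested for genes described here, 9 held a library that lay apart by Dixon's test at 95%, and chance alone gives this in about 1 of 20 groups. At 39 °C, replicate 1 stood above the others for Atg14 in all cells (29.2 CPM, others 26.1 to 26.6) and for Lamp1 in all cells (679 CPM, others 612 to 621) and in G1 cells (700.2 CPM, others 621 to 629), and below them for Map1lc3a in all cells (137 CPM, others 154 to 157). That library had the fewest cells and the most UMIs per cell, and the part of this was not tested. At 39 °C, replicate 4 was lowest for Atg7 in G1 cells (33.2 CPM, others 34.5 to 34.6). At 37 °C, replicate 2 was lowest for Ctsd (464 CPM, others 510.2 to 518) and highest for Gabarapl1 (51.4 CPM, others 41.5 to 42.4) in G1 cells. Replicate 3 at 37 °C was highest for Ctsa in all cells (121 CPM, others 113 to 114), and replicate 4 was highest for Map1lc3a in G1 cells (230.4 CPM, others 203 to 208).

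The temperature difference differed between G1 cells and S and G2M cells, by the interaction test in edgeR, for 8 members. The signed interaction was positive for Atg5 (0.27 ± 0.09, adjusted p = 0.0168), Atp6v1g1 (0.22 ± 0.04, adjusted p = 1.82e-07), Atg101 (0.19 ± 0.06, adjusted p = 0.0207) and Sqstm1 (0.10 ± 0.04, adjusted p = 0.0404). It was negative for Ctsa (-0.41, adjusted p = 6.93e-12), Ctsl (-0.27, adjusted p = 6.53e-07), Lamp2 (-0.17, adjusted p = 0.000954) and Lamp1 (-0.0904, adjusted p = 0.0253). The sign does not say in which phase the difference was larger in size.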

How the results depend on the processing

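Over all alternatives run, Atg9b rose by 1.79 to 1.91 in all cells and by 1.84 to 2.02 in G1 cells, and its gain in the share of G1 cells was 11.03 to 29.2 percentage points. Counts of lower members moved under scaling or thinning: with RLE factors 7 rather than 4 were lower in all cells, and at equal library totals 0 rather than 1 were lower in G1 cells with a size of 0.5. With phases scored in each library by itself, 6 rather than 3 were lower in G1 cells at 37 °C. The interaction counts were the least stable: positive 1 with RLE factors and 1 with filterByExpr, and negative 8, 16 and 15 with RLE factors, filterByExpr and phases scored per library, each against 4. Signs turned for values that were not called: in G1 cells Atg9a (0.0010), Map1lc3b (0.0543), Sqstm1 (0.1067) and Atp6v1b2 (0.1311) with phases scored per library, and Atp6v1b2 (0.0003) with a mitochondrial limit of 10%. The called interaction of Sqstm1 turned to -0.0118 with phases scored per library. Values not called in G1 cells passed the threshold under single alternatives: Becn1 (0.16) and Ctsb (0.14) with phases scored per library, Atg4a (-0.31) and Atg4c (0.51) with phases on thinned cells, Atg4c with a mitochondrial limit of 10% (0.66) or without 37 °C replicate 1 (0.62), and Tfe3 with no filter on low counts (0.17), with phases on thinned cells (0.17) or without 37 °C replicate 2 (0.20). The cause of these moves was not tested.

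Leaving out 1 library at a time gave 32 to 34 members higher and 4 to 7 lower in all cells, 16 to 19 and 8 to 10 in G1 cells, 31 to 34 and 2 to 3 for phase at 37 °C, 29 to 34 and 3 to 5 for phase at 39 °C, and 2 to 4 positive and 3 to 6 negative for the interaction. The interaction of Atg9b ranged from -0.0734 to 0.0492, and the G1 value of Atp6v1b2 from -0.1031 to 0.0085.

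The titles share replicate numbers 1 to 4 across temperatures, but same-numbered libraries did not deviate together (correlations of -0.058, -0.036, -0.037 and 0.090 in all cells), so the numbers were not taken to pair them. With the replicate number as a block, 33 members were higher and 5 lower in all cells, and 19 and 10 in G1 cells. Tfe3 then passed the threshold in G1 cells (adjusted p = 0.0459), and no other call of a named gene changed. Results for genes of few counts, among them Ctsw in G1 cells, Atp6v0c and Atp6v1c2, are limited by those counts. Intervals and permutation tests cover the spread of these 8 libraries alone.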
